A study of Homo sapiens with 10 samples.

Results

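The antigen presentation genes were 9 of the 20136 protein-coding genes of the GENCODE annotation on hg19, chosen by name: HLA-B, HLA-C, B2M, TAP1, TAP2, TAPBP, NLRC5, CIITA and HLA-DRA. For each gene, ChIP-seq peaks were read within 1 kb of every annotated transcript start, along the gene body, and in the 20 kb on either side of the gene. The peaks come from HCT116, an established human colorectal carcinoma line. The 5 lists analysed, 1 library each, are those of total RNA polymerase II (Pol II, antibody N-20), KAP1 (also called TRIM28, a chromatin co-regulator), Larp7, Hexim1 and Cdk9. Larp7 and Hexim1 belong to the 7SK ribonucleoprotein, which holds the elongation kinase P-TEFb inactive, and Cdk9 is the kinase subunit of P-TEFb. No treatment, mutation or time point is named in the labels, so the cells were all in 1 condition, and the values are compared between genes within a list. Of the 10 libraries, the other 5 (Input, H3K27ac, H3K4me1, H3K4me3 and Ser5P Pol II) were not analysed here.

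MHC class I molecules show peptides of the cell's own proteins to CD8 T cells and are made by nearly all nucleated cells. The class I heavy chain pairs with beta-2-microglobulin in the endoplasmic reticulum, where it receives peptides that the proteasome has cut and the TAP transporter has carried across the membrane. MHC class II molecules show peptides of ingested material to CD4 T cells and are normally made by B cells, dendritic cells, macrophages and thymic epithelium, while interferon gamma can bring them out in other cells through CIITA. Promoters of both classes carry an SXY module bound by RFX, CREB-family and NF-Y proteins, on which NLRC5 (class I) or CIITA (class II) assembles, and class I pathway promoters also carry sites for interferon regulatory factors (IRF) and NF-kB.

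The promoter sequences of these genes were searched for exact spellings of such sites, and they are the stretches against which the peaks below are placed. The RefSeq promoter table (GRCh38.p14) held 6 of the 9 members, and the 250 bases before each start matched GRCh37 (hg19) exactly and at 1 place. The start used there was the canonical start of the GENCODE annotation in all 6. Of these, 5 are printed 5′ to 3′ on the gene's own strand, ending 1 base before the start. Capitals mark CCAAT (the core of the Y box bound by NF-Y), TGACG (the core of the X2 box and of CRE sites), the IRF type motif (GAAA, any 2 bases, then GAAA again) and the NF-kB type motifs, on either strand. The NF-kB type was searched in a short, a middle and a long spelling: GGGANTCC, GGGANTTCC, and GGGANTTCC with 1 more T. The HLA-B stretch lies at chr6:31324957-31325206 (minus strand), HLA-C at chr6:31239870-31240119 (minus), B2M at chr15:45003465-45003714 (plus), TAP1 at chr6:32821482-32821731 (minus) and TAPBP at chr6:33281856-33282105 (minus).
HLA-B: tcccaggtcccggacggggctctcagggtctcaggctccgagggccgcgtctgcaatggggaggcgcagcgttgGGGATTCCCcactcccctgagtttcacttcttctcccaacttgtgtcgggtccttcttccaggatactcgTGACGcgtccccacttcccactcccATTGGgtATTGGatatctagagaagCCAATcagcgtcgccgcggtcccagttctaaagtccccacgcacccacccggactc
HLA-C: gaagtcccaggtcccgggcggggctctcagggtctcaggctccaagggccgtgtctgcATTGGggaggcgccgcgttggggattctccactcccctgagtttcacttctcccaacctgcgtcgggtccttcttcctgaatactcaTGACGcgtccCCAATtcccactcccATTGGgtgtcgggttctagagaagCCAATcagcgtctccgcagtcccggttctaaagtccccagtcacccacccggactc
B2M: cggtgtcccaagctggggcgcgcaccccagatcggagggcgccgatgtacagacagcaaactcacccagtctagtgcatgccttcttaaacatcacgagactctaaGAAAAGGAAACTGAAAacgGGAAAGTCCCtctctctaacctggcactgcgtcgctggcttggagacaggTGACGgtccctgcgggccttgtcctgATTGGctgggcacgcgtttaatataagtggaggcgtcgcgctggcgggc
TAP1: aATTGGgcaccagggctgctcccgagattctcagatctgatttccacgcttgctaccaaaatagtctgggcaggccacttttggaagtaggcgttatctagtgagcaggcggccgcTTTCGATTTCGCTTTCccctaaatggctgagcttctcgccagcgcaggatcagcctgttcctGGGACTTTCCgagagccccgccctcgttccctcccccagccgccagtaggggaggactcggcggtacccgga
TAPBP: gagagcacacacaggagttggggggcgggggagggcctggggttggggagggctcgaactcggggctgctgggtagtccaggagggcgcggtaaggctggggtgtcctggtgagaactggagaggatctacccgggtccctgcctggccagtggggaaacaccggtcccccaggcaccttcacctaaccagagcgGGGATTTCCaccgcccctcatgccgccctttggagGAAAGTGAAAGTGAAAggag

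The HLA-B and HLA-C stretches are close copies, with 226 identical positions, 20 mismatches and 8 gaps, an identity of 89.0%. Both hold TGACG, at positions -106 to -102 from the start in HLA-B and -105 to -101 in HLA-C, with CCAAT at -56 to -52 downstream of it in both. HLA-B also has an NF-kB type match, which reads on both strands around -176 to -168, and none of the 3 NF-kB type spellings occurs in the HLA-C window. B2M has TGACG at -75 to -71, CCAAT at -49 to -45, overlapping IRF type matches from -144 to -129, and an NF-kB type match at -125 to -116. TAP1 has overlapping IRF type matches from -134 to -119 and an NF-kB type match at -72 to -63. TAPBP has overlapping IRF type matches from -20 to -5 and an NF-kB type match at -55 to -47. TAP2, whose 250 bases lie at chr6:32806517-32806766, has an IRF type match at -58 to -49 and TGACG at -35 to -31. Across 35093 promoter stretches of the same length in the table, CCAAT was in 32.0%, TGACG in 21.2%, the IRF type motif in 3.02%, and the NF-kB type in 3.85% (short), 1.59% (middle) and 0.527% (long). An IRF type spelling (with 1 or 2 bases between the GAAA runs) together with an NF-kB type spelling was in 0.231% of them, and B2M, TAP1 and TAPBP were among those. The search also covered TTCNNNGAA (the GAS element, in 6.57% of promoters and in none of the 6), TATAAA (10.7%, among the 6 only in TAP2) and GGGCGG (the Sp1 type GC box, 42.6%, in HLA-C, TAP1, TAP2 and TAPBP). A match describes letters in the window and says nothing of binding, and a site spelled otherwise is not found by this search.

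At their transcript starts, 8 of the 9 genes had a peak of every one of the 5 factors, and HLA-DRA, the class II alpha chain, had none. Pol II was at a start of 8 of 9 members, and at a start of 77.2% of all coding genes. The same 8 members had KAP1, against 72.3% of coding genes, Larp7, against 82.1%, Hexim1, against 84.6%, and Cdk9, against 77.0%. All 5 factors together were at 68.0% of coding genes, and no factor was at 13.0% (2612 genes). Most coding genes with Pol II carried the other factors too: KAP1 was at 89.9% of the 15551 coding genes with Pol II, Larp7 at 96.5%, Hexim1 at 98.9%, Cdk9 at 93.6% and all 4 at 88.0%. Presence of the 5 factors at 8 starts is thus the usual state of a coding gene with Pol II in these lists. The members have more annotated starts than most genes, with a median of 9 (2 to 28) against 5 for coding genes, which gives each of them more windows in which a peak can fall. No antibody has a second library, so no value is checked by a replicate, and differences between genes cannot be set against a spread.

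The deposited fold of a peak is the authors' ratio of the peak over its background, and it ranged widely over the 8 genes. In this text, the value of a gene is its highest fold at any start, and the percentage after it is the share of coding genes with that factor at a start whose highest fold is lower. Pol II folds ran from 84.8 at HLA-C, 56.3 at NLRC5, 37.4 at B2M, 36.2 at TAP1, 35.6 at TAP2, 33.7 at HLA-B and 25.0 at TAPBP to 8.42 at CIITA. HLA-C and NLRC5 thus stood at the high end and CIITA apart at the low end, and B2M, TAP1, TAP2 and HLA-B were close to each other. The median over the 8 was 35.9 for Pol II, against 41.4 over all coding genes with Pol II. The KAP1 median was 4.44 against 4.91, that of Cdk9 4.08 against 4.66, that of Larp7 4.50 against 4.99, and that of Hexim1 7.28 against 7.12. These medians lie well inside the spread of coding genes, whose 10th and 90th percentiles for Pol II were 6.33 and 99.9.

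**Figure D1:**
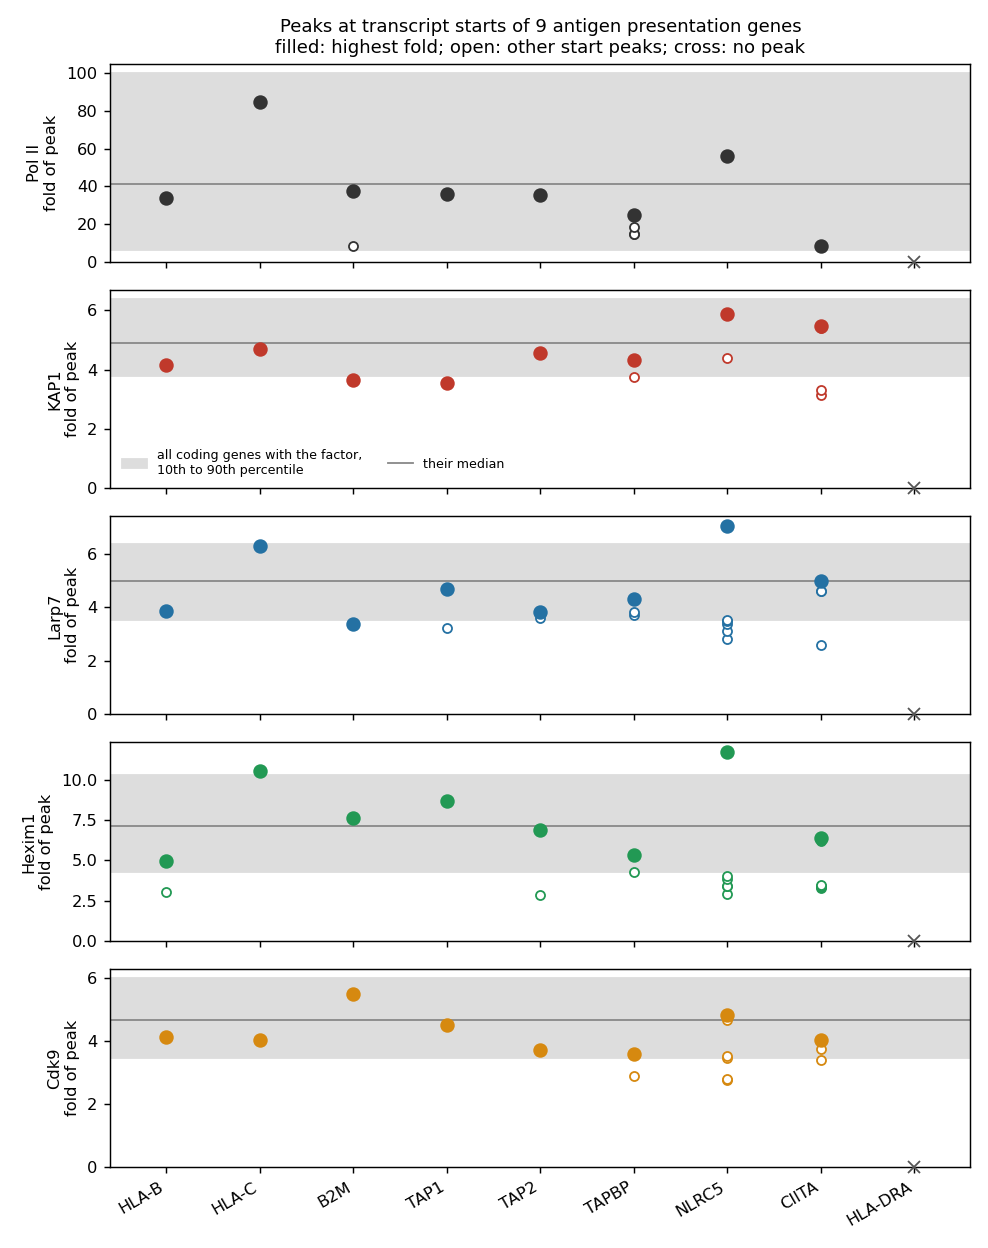
Deposited fold (linear axis, ratio over background) of the peaks at the transcript starts of each antigen presentation gene, 1 panel per list. Filled points are the highest fold of a gene, open points its other start peaks, the grey band the 10th to 90th percentile of all coding genes with the factor, and the line their median. HLA-C and NLRC5 are the highest members for Pol II (84.8 and 56.3), CIITA is the lowest (8.42), and HLA-DRA has a cross for no peak in every panel.

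The class I heavy chain genes HLA-B and HLA-C encode the peptide-binding chain of the classical class I molecule. At HLA-C (chr6:31236526-31239907, minus strand) all 5 peaks lay over the first exons. A long noncoding RNA on the other strand begins 110 bp from an HLA-C start, so the peaks there cannot be assigned to HLA-C alone. The Pol II peak had a fold of 84.8 (83.1% of coding genes with Pol II lower) at chr6:31238811-31239994, with its middle in coding exon 2 of 8. Hexim1 had 10.6 (91.6%) and Larp7 6.31 (89.4%). KAP1 had 4.71 (41.5%) and Cdk9 4.04 (24.7%). Among coding genes with the factor, HLA-C therefore ranked high for the 7SK proteins Hexim1 and Larp7, and below the middle for Cdk9 and KAP1.

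HLA-B (chr6:31321649-31334844, minus strand) ranked lower than HLA-C in 4 of the 5 lists. Its Pol II peak, at chr6:31324034-31325046, had a fold of 33.7 (42.9%). KAP1 had 4.16 (20.3%), Larp7 3.86 (16.0%) and Hexim1 4.96 (16.2%). Cdk9 was the exception, with 4.13 (27.9%) against 4.04 at HLA-C. All 5 peaks lay within 1 kb of the canonical start at 31324956. Pol II and KAP1 covered it, and the Hexim1, Cdk9 and Larp7 peaks lay 16, 114 and 376 bp from it, inside the gene. A pseudogene on the other strand begins 532 bp from the canonical start. The canonical start sits 9888 bp inside the outermost annotated 5′ end. At that outer end there was only a weak Hexim1 peak of fold 3.01, and starts of the pseudogene DHFRP2 and of a long noncoding RNA lie within a few bases of it. HLA-B and HLA-C are close copies, and how reads that align to more than 1 place were treated is not given in the sources used here, so a split of reads between the class I genes cannot be told apart from a difference in occupancy.

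B2M encodes beta-2-microglobulin, the invariant light chain of every class I molecule. It lies at chr15:45003556-45011049 on the plus strand, and a start of PATL2 on the other strand lies 35 bp from one of its starts, so the peaks there count for both genes. Pol II had a fold of 37.4 (46.5%) at chr15:45003575-45004394, and a second Pol II peak of 8.24 followed in intron 1. KAP1 had 3.66 (7.01%) and Larp7 3.39 (7.73%), both low among coding genes with the factor. Hexim1 had 7.65 (59.4%) and Cdk9 5.49 (79.6%), the highest Cdk9 fold of the 9 genes. Among coding genes with the factor, B2M was thus low for KAP1 and Larp7 and high for Cdk9, with Pol II near the middle. The Cdk9 peak, at chr15:45003915-45004200 in intron 1, was also the 1 Cdk9 start peak of the members with a deposited −log10 q of at least 5.

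TAP1 and TAP2 encode the paired subunits of the transporter that carries peptides into the endoplasmic reticulum, and TAPBP encodes tapasin, which holds empty class I molecules at the transporter. TAP1 (chr6:32812986-32821593, minus strand) shares its promoter with PSMB9, an immunoproteasome subunit gene transcribed the other way, whose nearest start lies 332 bp from a TAP1 start. The shared site had a Pol II fold of 36.2 (45.2%) at chr6:32820890-32822175. Hexim1 had 8.71 (75.0%), Cdk9 4.50 (43.1%) and Larp7 4.69 (39.1%). KAP1 had 3.53 (4.76%), the lowest KAP1 value of the 8. Peaks of all 5 factors covered the whole 250 bases printed for TAP1, IRF and NF-kB type letters included. A fold at this site cannot be assigned to TAP1 or to PSMB9.

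TAP2 (chr6:32789610-32806516, minus strand) had a Pol II fold almost equal to that of TAP1, 35.6 (44.7%), at chr6:32805618-32806649. KAP1 had 4.55 (34.7%) and Hexim1 6.91 (46.3%). Larp7 had 3.84 (15.5%) and Cdk9 3.71 (15.2%). TAP2 therefore ranked above TAP1 for KAP1 and below it for the 3 proteins of the 7SK and P-TEFb pathway. An annotated readthrough gene, ENSG00000250264, begins 83 bp from the TAP2 start and has the same peaks. Between the TAP genes lay 2 sites within 1 kb of starts of both immunoproteasome genes, PSMB8 and PSMB9. The one nearer TAP2 had Pol II at 4.61, KAP1 at 4.67, Larp7 at 5.05, Hexim1 at 7.66 and Cdk9 at 3.94. The one nearer TAP1 had Pol II at 19.3, Larp7 at 5.24 and Hexim1 at 9.27, and neither KAP1 nor Cdk9.

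**Figure D2:**
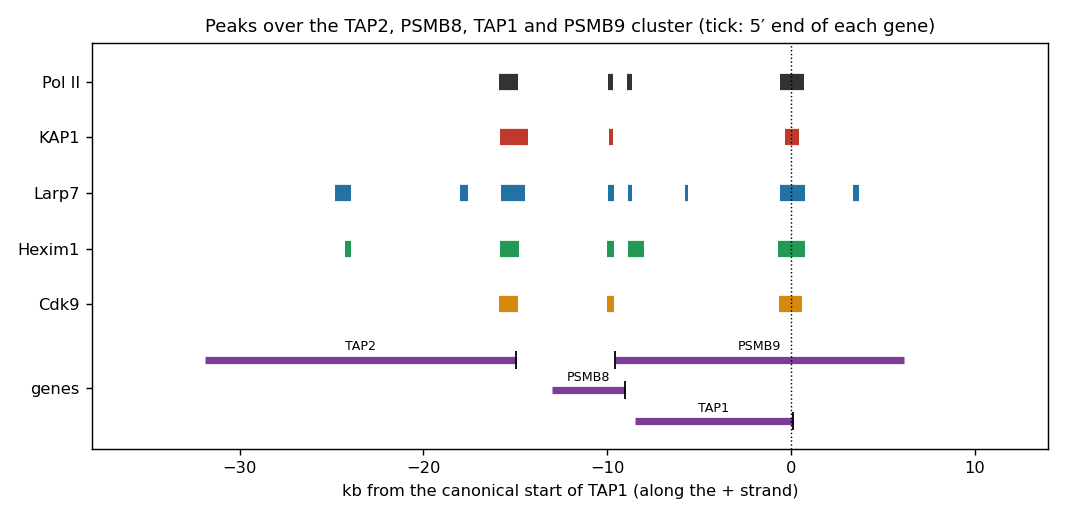
Peaks of the 5 lists around TAP2, PSMB8, PSMB9 and TAP1, as bars at their distance in kb from the canonical TAP1 start along the plus strand, with gene bodies below and a tick at each 5′ end. All 5 lists have a bar at the TAP1 and PSMB9 start and at the TAP2 start, where Pol II folds were 36.2 and 35.6, and the body of TAP1 between them holds no Pol II peak.

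TAPBP (chr6:33267471-33282061, minus strand) had 4 Pol II peaks at its starts, more than any other member, and 2 or 3 of each other list. Its highest Pol II fold was 25.0 (35.1%) at chr6:33281414-33282114, over the canonical start. Further Pol II peaks of 18.4 in coding exon 3, 14.9 upstream and 14.6 in coding exon 5, were all within 1 kb of some annotated start. The Pol II peaks of this gene were separate from each other, while a KAP1, a Larp7 and a Hexim1 peak each overlapped more than 1 of them. Pol II was called as narrow peaks and the other lists as broad peaks, so calling cannot be told apart from occupancy here. KAP1 flanked the canonical start without covering it, with 3.74 downstream and 4.33 (26.1%) upstream. Cdk9 was placed likewise, with 2.90 downstream and 3.57 (11.8%) upstream. Larp7 reached 4.31 (27.2%) upstream, and 3.70 in a peak over the start. Hexim1 had 5.34 (20.4%) in a single peak of 6460 bp, chr6:33280372-33286831, which runs from TAPBP past the start of its neighbour ZBTB22. TAPBP lies in a dense row of genes, and the nearest promoters also had Pol II, with folds of 46.4 at RGL2, 24.9 at ZBTB22 and 18.6 at DAXX.

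NLRC5 encodes the transactivator of class I genes, and CIITA the related master regulator of class II genes. NLRC5 (chr16:57023397-57117443, plus strand, 28 distinct starts) ranked above the middle of coding genes with the factor for all 5 factors. Pol II had 56.3 (63.1%) at chr16:57023084-57023867, KAP1 5.86 (81.0%), Larp7 7.05 (96.6%) and Hexim1 11.7 (96.4%). KAP1, Larp7 and Hexim1 each had the highest fold of the 9 genes here, and Larp7 and Hexim1 were near the top of all coding genes. At this start Cdk9 had 4.66. The highest Cdk9 value of NLRC5, 4.83 (57.2%), came from an inner site in intron 28 of 49, chr16:57092525-57092686. KAP1 (4.40) and Hexim1 (3.38) had narrow peaks at the same place, and Pol II and Larp7 had none. It lies within 1 kb of an inner NLRC5 start, and a long noncoding RNA on the other strand begins 432 bp from an NLRC5 start in this stretch.

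CIITA (chr16:10960079-11036878, plus strand) had all 5 factors at a start, yet not at its canonical start. The canonical start at 10971059 had no peak within 1 kb in any list, and the outermost 5′ end, 10980 bp upstream of it, had only a Hexim1 peak of 3.34. All 5 lists instead had a peak at an inner start at 10972826, in intron 1 of the canonical transcript, and 176 bp (chr16:10973088-10973263) were common to all 5. There Pol II had 8.42 (17.1%), KAP1 5.46 (70.9%), Larp7 5.00 (50.8%), Hexim1 6.18 and Cdk9 3.38. Among the members CIITA combined the lowest Pol II fold with the second-highest KAP1 fold. CIITA is known to be transcribed from several promoters used in different cell types, one of them induced by interferon gamma. Which of them the start at 10972826 is was not tested.

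The remaining CIITA peaks need its neighbours to be read. Its highest Hexim1 value, 6.41 (37.0%), and a KAP1 peak of 5.40 lay at the end of CIITA, over the promoter of DEXI on the other strand, where Pol II had 63.1 at chr16:11035730-11036550. The next promoter, that of CLEC16A, had a Pol II fold of 14.5. Inside the gene, away from these neighbours, all 5 factors also met over coding exon 11, with Pol II 3.43, KAP1 4.71, Larp7 5.91, Hexim1 5.61 and Cdk9 3.47. They met again over the UTR of exon 20, with Pol II 5.04, KAP1 4.31, Larp7 4.61, Hexim1 4.19 and Cdk9 3.28. The highest Cdk9 value of the gene, 4.02 (24.4%), lay in coding exon 17. Pol II at these inner places was weak within its list, where the median fold of all peaks was 6.33.

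**Figure D3:**
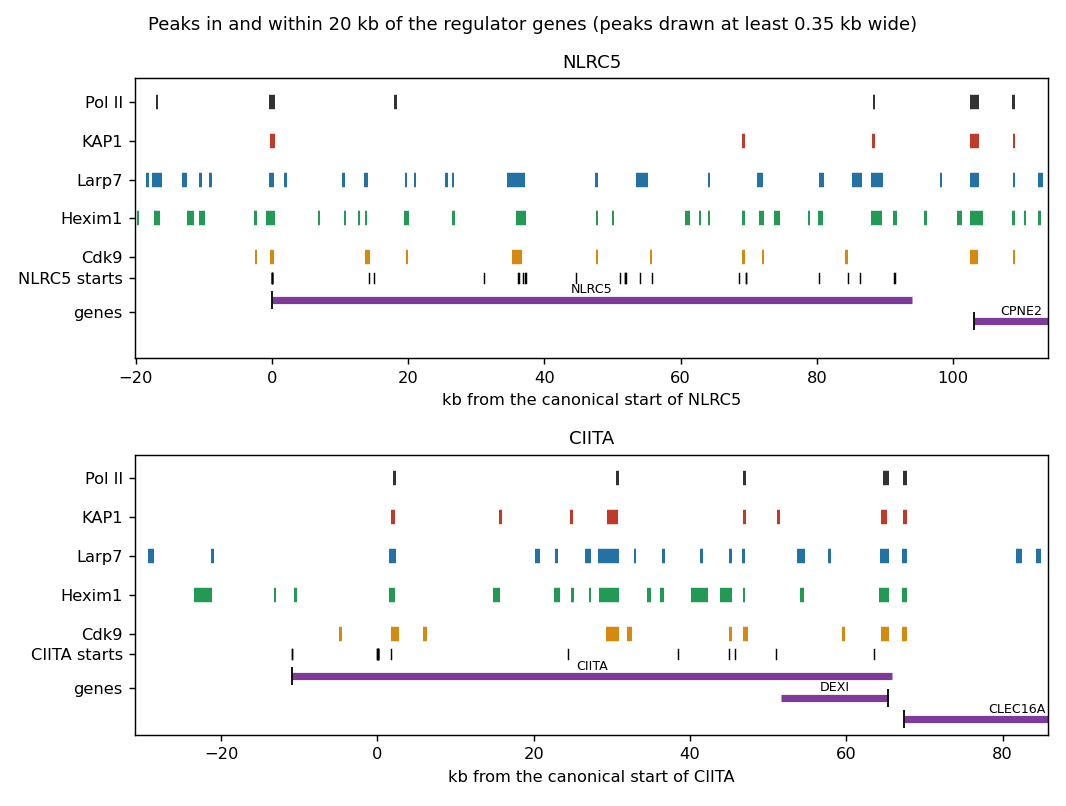
Peaks of the 5 lists along NLRC5 and CIITA, as bars at their distance in kb from the canonical start of each gene, with ticks at the annotated starts and neighbouring genes below. NLRC5 has all 5 lists at its start and CIITA has none there, with the first shared site about 2 kb further on, the inner sites over exons 11 and 20, and the strong Pol II peak (63.1) of the DEXI promoter at the far end.

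HLA-DRA, the alpha chain of HLA-DR, had no peak of any list at either of its 2 starts or in its body (chr6:32407655-32412823, plus strand). Within 20 kb there were 3 weak Hexim1 peaks, of folds 3.12, 3.89 and 3.31, the nearest with its middle 1617 bp upstream of the canonical start. There was 1 Cdk9 peak, of fold 3.12, past the end of the gene. The whole zone held no Pol II, KAP1 or Larp7 peak, which was so for 3.87% of coding genes. This combination of lists is the one seen at HLA-DRA, and zones vary with gene length, so the share does not measure how unusual the gene is. HLA-DRA shared the absence of all factors at a start with 2611 other coding genes. With depth unknown, a site too weak to be called cannot be told apart from an empty one.

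Within the 8 occupied genes, the lists met on the same bases. Each had at least 1 base common to all 5 lists inside a Pol II start peak, as did 86.8% of coding genes with Pol II. The common stretch was longest at TAP2 and HLA-C, with 946 and 932 bp. It was 749 bp at TAP1 and 578 bp at NLRC5. It was 301 bp at HLA-B, 268 bp at B2M and 176 bp at CIITA, and TAPBP had separate stretches of 231 and 117 bp. Where it lay differed by gene. At HLA-B, HLA-C and B2M it began 376, 11 and 218 bp downstream of the canonical start, so the SXY letters printed above lay outside it. At TAP1 it ran from 434 bp upstream to 314 bp downstream.

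In the 7 members with peaks near the canonical start, the median offsets of the peaks were larger than those of coding genes. The counts of members with a downstream peak rest on 7 genes and are given beside the share of coding genes, without a test. The middle of the highest Pol II peak was downstream of the start in 6 of 7 (all but TAP1), against 67.8% of coding genes, with a median offset of 269 bp against 91 bp. For KAP1 these were 6 of 7 (all but TAP1) against 72.3%, and 319 bp against 161 bp. Cdk9 had 7 of 7 against 67.8%, and 395 bp against 131 bp. Larp7 had 4 of 7 against 65.7%, and 167 bp against 124 bp. Hexim1 had 4 of 7 against 61.0%, and 337 bp against 98 bp. The medians for KAP1, Larp7 and Hexim1 lay below the upper quartile of coding genes (331, 356 and 358 bp), and those for Pol II and Cdk9 above it (232 and 325 bp). TAP1, TAPBP and NLRC5 were the members not downstream for Larp7 and Hexim1. Upstream of the class I chain genes and B2M, the cover is given for each list and not ranked between lists, which differ in peak type and strength. HLA-B and HLA-C are close copies, so lost reads there cannot be told apart from absent peaks. In the 250 bases upstream of the HLA-B start, Pol II covered 90 bases, KAP1 63 and the other lists 0. At HLA-C Pol II covered 125 bases, Larp7 23, Hexim1 48, and KAP1 and Cdk9 0. At B2M Pol II covered 140 and the other lists 0. The class I chain and B2M peaks thus lay mainly over the first exons and introns, and those of TAP1 on both sides of the start.

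**Figure D4:**
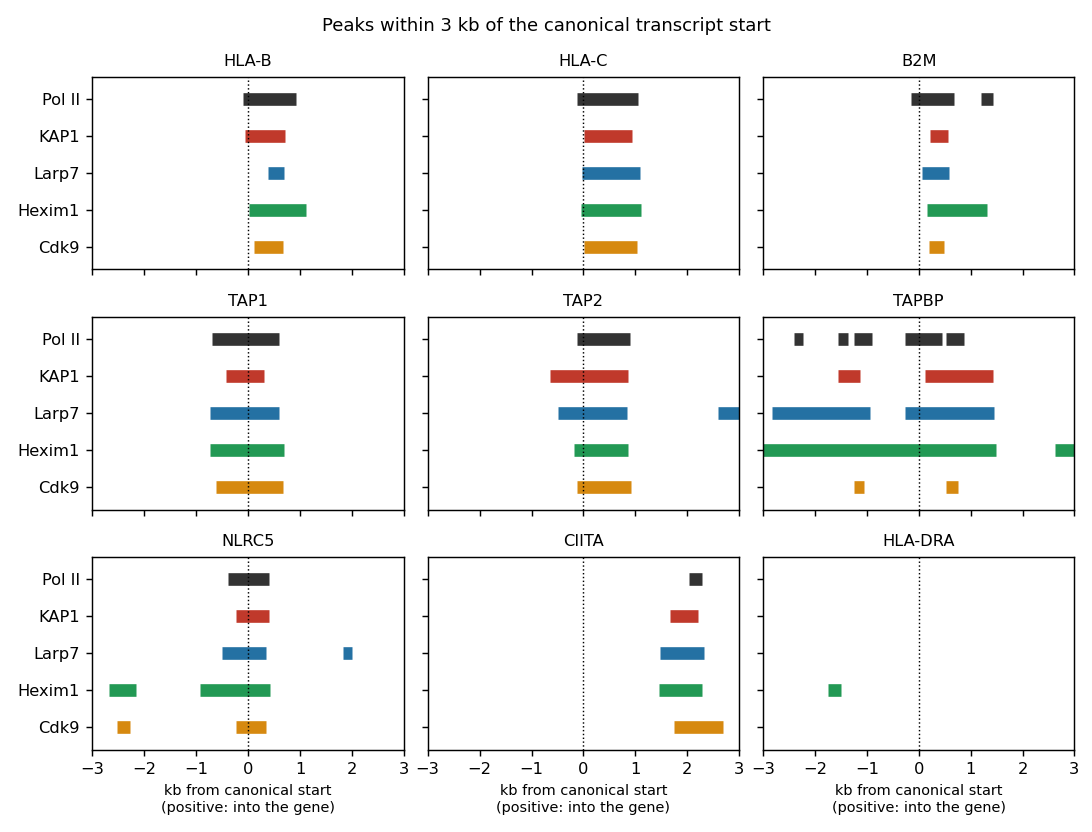
Extent of the peaks within 3 kb of the canonical start of each of the 9 genes, in kb from that start, positive into the gene, 1 row and colour per list. At HLA-B, HLA-C and B2M the bars lie mostly to the right of 0, at TAP1 they span it, at CIITA they begin more than 1 kb to the right, and HLA-DRA has 1 Hexim1 bar upstream.

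Along the gene bodies (from 2 kb past the outermost 5′ end to the 3′ end, in the 8 members of at least 4 kb), the members differed widely, and NLRC5 and CIITA held most of the peaks. Their bodies are also by far the longest, with 92047 and 74800 bp against 14907 bp at TAP2, the next longest. Peak counts are therefore not comparable between members without the length. NLRC5 had 15 Larp7, 19 Hexim1 and 8 Cdk9 peaks in its body, and CIITA 13, 13 and 9. The CIITA counts include the peaks at its inner start at 10972826 and at the DEXI promoter. Pol II was found in the body of 4 of 8 members (HLA-B, TAPBP, NLRC5 and CIITA), against 62.1% of coding genes of that length. At HLA-B this was the promoter peak itself, since the canonical start lies inside the annotated gene. At CIITA the Pol II body peaks included the one at the inner start. KAP1 was in 3 of 8 (HLA-B, NLRC5 and CIITA), against 56.6%, and Cdk9 in 4 of 8, against 76.2%. Larp7 was in 6 of 8, against 84.8%, and Hexim1 in 6 of 8, against 88.1%. Without peaks within 1 kb of any start, 3 members kept Pol II (49.8% of coding genes), 2 KAP1 (42.4%), 3 Cdk9 (66.0%), 4 Larp7 (74.4%) and 4 Hexim1 (78.0%). The bodies of B2M and HLA-DRA had no peak of any list. TAPBP had the most body cover by Pol II (11.2%), Larp7 (23.0%) and Hexim1 (35.2%), against medians of 0.56, 5.04 and 7.65% in coding genes. For each of these 3 lists, the TAPBP cover includes the end of a peak at the RGL2 promoter. KAP1 covered most at HLA-B (6.83%, again its promoter peak) and Cdk9 at CIITA (8.04%, its inner start peak included). TAPBP had 0% and 2.48% for these. NLRC5, the longest member with 94047 bp, had 13.0% covered by Larp7 and 10.5% by Hexim1, and 0.415% by Pol II.

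Over the gene and 20 kb on either side, Hexim1 and Cdk9 were found at 9 of 9 members, against 96.3 and 93.2% of coding genes. The other lists were found at 8 of 9, against 88.0% of coding genes for Pol II, 87.1% for KAP1 and 95.5% for Larp7. Counting each peak once, the genes and the 20 kb around them held 36 Pol II, 26 KAP1, 75 Larp7, 91 Hexim1 and 40 Cdk9 peaks. HLA-C stood alone for Pol II, with its start peak the only Pol II peak within 20 kb, and HLA-B likewise. About 20 kb upstream of HLA-B, KAP1 (3.24), Larp7 (4.07) and Hexim1 (3.73) met at a site without Pol II or Cdk9, and that Larp7 peak was stronger than the one at the HLA-B start (3.86). Downstream of B2M the TRIM69 start had Pol II (13.1), Larp7 (3.80) and Hexim1 (4.65). Downstream of NLRC5 the CPNE2 promoter had Pol II at 76.6, above NLRC5 itself, with KAP1 at 5.69, Larp7 at 6.51, Hexim1 at 10.3 and Cdk9 at 5.45. A site in introns 42 and 43 of NLRC5 had Pol II (5.36), KAP1 (3.53), Larp7 (4.09) and Hexim1 (3.87), and no Cdk9.

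Under a stricter reading, most start peaks of KAP1, Larp7 and Cdk9 at these genes dropped out. With a deposited −log10 q of at least 5, Pol II stayed at 8 members and Hexim1 at 8, against 74.8 and 74.2% of coding genes. Larp7 was left at 4 (HLA-C, TAP1, NLRC5 and CIITA), against 56.1%, KAP1 at 2 (NLRC5 and CIITA), against 29.0%, and Cdk9 at 1 (B2M), against 18.1%. No member had all 5 factors, against 11.6% of coding genes. With 20000 peaks per list, taken by −log10 p, NLRC5 alone had all 5 (22.2% of coding genes). NLRC5 and CIITA had KAP1 under either reading. At CIITA the KAP1 peak of the inner start passed narrowly, with a −log10 q of 5.05, and another (5.82) lay at the DEXI promoter. With 20000 peaks per list, HLA-C, TAP2 and TAPBP also had KAP1, against 48.8% of coding genes.

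The genes most like each member were taken as those with the smallest distance over 5 percentile ranks, each the rank of the highest start fold among all coding genes. For NLRC5 these were ENTPD8 (7.26 percentile points away) and TRADD (9.59), and for HLA-B RNFT1 (9.59) and SHBG (10.5). H2AZ2 (10.2) was among those of HLA-C. For TAPBP they were RGPD8 (7.28) and COX14 (9.52), and for CIITA PLA2R1 (6.74) and CCND2 (6.76). For TAP1 they were DACT3 (7.79) and COA6 (11.6). B2M and TAP2 had PATL2 and ENSG00000250264 at 0, since these share their peaks, and next PPT1 (12.0) and ACTR6 (9.27). No member was among the nearest of another, and the likeness rests on 5 values from 1 library each. The CIITA ranks mix sites, since its highest Hexim1 fold lay at the DEXI promoter and its highest Cdk9 fold in exon 17.

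Other genes of the pathway, grouped by role, were counted in the same way. Of 6 further class I and class I-like genes, all 6 had all 5 factors at a start (68.0% of coding genes), among them HLA-E (Pol II 85.3), a ligand of NK cell receptors, and MICB (63.3), a stress ligand. HLA-G, which is normally made in the placenta, was low for Pol II (6.27, 8.98% of coding genes lower). Of 11 genes of peptide supply and loading, 11 had Pol II (77.2% of coding genes) and 10 had all 5 (68.0%). The highest were the chaperones CALR (160) and CANX (94.0) and the disulfide isomerase PDIA3 (81.9). The exception was ERAP2, a peptide-trimming enzyme, with Pol II at 6.48, Hexim1 at 3.14 and no other factor. PSME1, a proteasome activator subunit, had a KAP1 fold of 8.27 (99.3% of coding genes with KAP1 lower), above that of every member.

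Of 14 genes of class II and its partners, 5 had Pol II and KAP1, 7 had Larp7 and Cdk9, and 9 had Hexim1. The shares over all coding genes were 84.6% (Hexim1), 82.1% (Larp7), 77.2% (Pol II), 77.0% (Cdk9) and 72.3% (KAP1). The full set of 5 was at 5 of the 14 (68.0% of coding genes), and no factor (13.0%) at 5 others: HLA-DRB5, HLA-DQA1, HLA-DQB1, HLA-DMB and HLA-DOB. The highest Pol II folds were at LGMN (106) and IFI30 (38.8), a lysosomal protease and a thiol reductase, and at HLA-DMA (42.9), whose peak lies at a start of BRD2. HLA-DPA1 and HLA-DPB1 share their peaks, with Pol II at 3.57, with 0.309% of coding genes lower, and Larp7 at 6.94 (96.0%). CD74, the invariant chain, had Larp7 (3.39), Hexim1 (5.60) and Cdk9 (3.80), and neither Pol II nor KAP1. Of the class II chain genes, the DP pair and HLA-DMA were thus the only ones with a Pol II peak at a start, and HLA-DRB1 had Hexim1 alone (3.89).

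Of 12 regulators of these promoters, all 12 had Pol II (77.2% of coding genes) and Larp7 (82.1%), and 11 had all 5 factors (68.0%). The highest Pol II folds were at IRF1 (162), an interferon-induced activator, NFYA (122), a subunit of the Y box factor, and CREB1 (93.6). RFX5, the X box factor subunit, had Pol II (11.6) and Larp7 (2.73) and no other factor. The labels call the cells endothelial, while the line is of epithelial origin, so markers of both were read. Of 10 colon epithelium markers 9 had Pol II, against 77.2% of coding genes (EPCAM 117, CDX2 100.2), with VIL1 without it. Of 10 endothelial markers 5 had Pol II, and CDH5, VWF, KDR, TEK and EMCN had none. Of those with it, ESAM had 92.4 and CLDN5 20.9, and TIE1, ERG and ROBO4 had 5.27 to 7.38. Of 10 markers of antigen-presenting and other blood cells 4 had Pol II, with folds of 4.15 to 5.27, and PTPRC and MS4A1 had no factor.

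**Figure D5:**
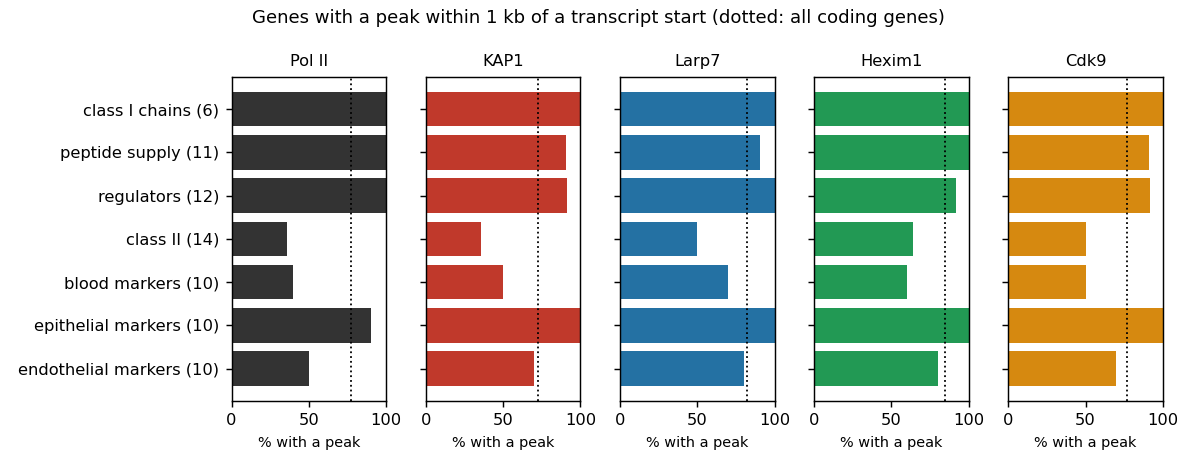
Genes with a peak of each list at a transcript start, as a percentage of the genes in each of 4 pathway lists and 3 marker lists, 1 panel per list of peaks, with a dotted line at the percentage of all coding genes. The class II list (5 of 14 with Pol II) and the blood cell list (4 of 10) are the lowest for Pol II, and the class I, peptide supply and regulator lists have Pol II at every gene.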

How the data were processed

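Per the labels' protocols, crosslinking of HCT116 cells took 10 min in 1% formaldehyde, and 50 min of sonication gave fragments of 100 to 300 bp. Per the submitters' processing notes, Bowtie 1.1, MACS2 (no version) and hg19 were used. Not given in the sources used here are the control, the handling of duplicate and multiply aligned reads, and depth. Each list is of 1 library: narrow peaks for Pol II, broad peaks for the others. The fold is the ratio over background deposited by the authors and was used only within a list. The −log10 p and −log10 q are as deposited by the authors. The deposited score was not used.

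The lists held 92939 (Pol II), 61312 (KAP1), 184243 (Larp7), 229679 (Hexim1) and 120113 (Cdk9) peaks. The share of peaks with a −log10 q of 5 or more was 75.4% in the Pol II list, 20.0% for Hexim1, 18.5% for Larp7, 14.0% for KAP1 and 4.42% for Cdk9. Left out were 2 Cdk9 peaks on unplaced sequences.

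A gene (GENCODE 44 on GRCh37) had a factor at a start when a peak overlapped 1000 bp on either side of any annotated start by at least 1 bp. The overlap code was tested on simulated intervals. Python 3.11.15, numpy 2.4.6, pandas 2.3.3 and scipy 1.17.1 were used. With 1 library per antibody no test was run. Promoter stretches come from the RefSeq table, which was matched by symbol. Members and gene lists were chosen with earlier results of these data known. Genes named beyond the members were, per list, those without any factor, the 3 of highest Pol II fold, genes sharing a promoter with a member, and the 2 nearest in pattern. ERAP2, RFX5, HLA-G, PSME1, HLA-DPA1, HLA-DPB1, HLA-DRB1, CD74 and the cell type markers were named after their values were seen. Some genes that this rule takes are not reported here. Alternatives were other start windows, other choices of start, the peak middle in place of overlap, a stricter q, equal list lengths, and body peaks away from starts.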

Additional observations from a re-analysis of the deposited data

How the results depend on the processing

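Of 112 recomputed values, 84 stayed within 1.5 times the main one, and 28 moved, all with the stricter q or with equal list lengths, where fewer peaks are kept by construction. At the stricter −log10 q (5 or more), the members with a peak at a start were 2 for KAP1, 4 for Larp7, 1 for Cdk9 and 0 for all 5 factors. The share of coding genes was then 29.0% for KAP1, 56.1% for Larp7, 18.1% for Cdk9 and 11.6% for all 5 factors. Members with a body peak were 1 for KAP1 (15.0% of coding genes of at least 4 kb), 1 for Larp7 (44.8%) and 0 for Cdk9 (10.2%). Peaks within 20 kb were 20 for Hexim1, 10 for Larp7, 6 for KAP1 and 1 for Cdk9. With 20000 peaks per list, the members with a peak at a start were 5 for KAP1, 2 for Larp7, 3 for Cdk9 and 1 for all 5 factors. The share of coding genes was then 48.8% for KAP1, 39.1% for Larp7, 47.7% for Cdk9 and 22.2% for all 5 factors. Members with a body peak were 2 for Hexim1 (34.4% of coding genes of at least 4 kb) and 1 each for KAP1 (30.4%), Larp7 (33.3%) and Cdk9 (31.3%). Peaks within 20 kb were 18 for Pol II, 11 for Hexim1, 11 for KAP1, 7 for Cdk9 and 5 for Larp7.

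With the outermost annotated 5′ end as the only start, 6 members had Pol II, KAP1, Larp7 and Cdk9, against 70.5, 64.6, 75.1 and 69.1% of coding genes, since HLA-B and CIITA were then lost beside HLA-DRA. Hexim1 stayed at 8, against 78.7%. A window of 2000 bp added Hexim1 at HLA-DRA. No paired analysis was possible because each antibody has 1 library. Depth is unknown, so a missing peak is not evidence of an empty site, and lists of different length are not ranked against each other.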
